A study of Homo sapiens with 2 samples.

Results

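Among the guides of a genome-wide knockout screen in ovarian cancer cells, 287 were well read before sorting and scarce or unread after it. They were chosen by their own read counts: at least 30 reads in the library of unsorted cells, and a log2 ratio of TRT-negative to unsorted normalised counts of -3 or less, computed with 1 added to both counts. Guides to microRNAs and non-targeting guides could not enter, and all other guides are called protein-coding here, after the class of the library. The 287 falling guides belonged to 287 different genes, and made up 287 of 10616 well-read protein-coding guides, of 114123 protein-coding guides and of 123411 guide rows in all. Because the ratio chose them, their own ratios are given as a description and support nothing.

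The cells were SK-OV-3, an established human ovarian cancer line, carrying a reporter of transcriptional readthrough (TRT) built on the stretch between COMMD3 and BMI1, with mCherry upstream and EGFP downstream. All cells carried the reporter from a lentiviral vector with an EF1a promoter, received the GeCKO v2.0 lentiviral pool (multiplicity of infection near 0.3) and were selected with puromycin at 2 µg/mL. The control group was the unsorted population and the other group was sorted as TRT-negative (mCherry+ EGFP-), with 1 library of genomic DNA each, so no difference between the conditions could be tested. The title of the control sample also fits a sort for both colours; it was read as unsorted here because the design text names unsorted cells as the counterpart. The libraries held 12882989 unsorted and 12444427 TRT-negative reads. Intervals are exact (Clopper-Pearson for shares, conditional binomial for ratios) at 95% and reflect counting error alone. Those of ratios treat each read as a separate draw, and those of shares treat each guide so. PCR copies are not separate molecules, so the intervals of ratios are too narrow even for counting error.

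In a pooled knockout screen each guide directs Cas9 to cut 1 gene, and the guide itself, integrated in the genome, serves as the barcode of the cells that carry it. The TRT-negative gate takes cells with the upstream colour and without the downstream colour, so that guides of cells outside the gate are scarce in its library. Several guides per gene are built into such libraries so that their behaviour can be compared.

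The falling guides were of 2 kinds. Of the 287, 90 had no TRT-negative read at all, and these had between 30 and 755 unsorted reads with a median of 63. The other 197 kept between 1 and 354 TRT-negative reads (median 67) and started higher, between 30 and 3043 unsorted reads with a median of 870. Over all 287 guides the log2 ratio ran from -9.54 up to the threshold with a median of -3.72, against a median of -0.64 over all well-read protein-coding guides. Together they took 1.49% of all reads before sorting and 0.132% after it. The upper end of the counting interval of the ratio lay at or under -3 for 188 of them and above -3 for 99, and the highest upper end was -1.91. A log2 ratio between -3.5 and the threshold was held by 113 guides. Just inside the threshold were the guides of PEBP1, an inhibitor of RAF kinase, with 581 unsorted and 69 TRT-negative reads, of MRPL38, a mitochondrial ribosomal protein, with 132 and 15, and of SYP, the synaptic vesicle protein synaptophysin, with 1074 and 128. Just outside it were the guides of NEO1 with 1091 and 131 reads, of MB (myoglobin) with 797 and 96, and of a row whose gene name reads as the date 9-Sep, with 3753 and 456.

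How often a well-read guide met the rule differed with its starting count. Over all well-read protein-coding guides the share was 2.70% (interval 2.40% to 3.03%). It was 71 of 446 guides (15.9%) with under 100 unsorted reads, 51 of 901 (5.66%) from 100 to under 300, 82 of 4861 (1.69%) from 300 to under 1000, 82 of 3886 (2.11%) from 1000 to under 3000, and 1 of 522 (0.192%) with 3000 or more. The steep part came from guides without any TRT-negative read, which were 0.848% of all well-read guides, 13.7% of those with under 100 unsorted reads and 0.103% of those from 300 to under 1000, with 0 found from 1000 unsorted reads on. Guides that met the rule while keeping TRT-negative reads took 2.24% of those with under 100 unsorted reads, 27 of 901 from 100 to under 300, 1.58% from 300 to under 1000, 2.11% from 1000 to under 3000 and 0.192% (1 of 522) from 3000 on. The part of the starting count in these calls was not tested. The rule asked for at most 2 TRT-negative reads from a guide with 30 unsorted reads, and allowed 119 from one with 1000. At +3 or more stood 25 well-read protein-coding guides (0.235%), 23 of them with under 100 unsorted reads. The sizes of both tails cannot be compared, because guides rising from few or no unsorted reads were not well read. Of 102180 protein-coding guides without unsorted reads, 3258 had 60 or more TRT-negative reads (3.19%). The median ratio of well-read guides, -0.64, also lay off 0, so -3 and +3 were not matched.

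Guides of the non-targeting and microRNA classes met the same rule at overlapping rates. Of 156 well-read non-targeting guides, which cut nothing in the genome, 4 stood at -3 or less (2.56%, interval 0.703% to 6.43%). Of 570 well-read microRNA guides, 18 did (3.16%, interval 1.88% to 4.95%). Without rows of identical counts, which repeat 1 measurement, the microRNA share was 2.27% (interval 1.10% to 4.14%). Among the 18 is the row of hsa-mir-3661, which has the same 43 and 0 reads as the falling guide of PPP2CA. The median log2 ratio of all well-read guides was -0.89 for the non-targeting and -0.65 for the microRNA class. Each of these intervals contains the 2.70% of the protein-coding guides.

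The lowest ratios belonged to guides that vanished from the sorted library. The guide of RSBN1L (chromosome 7, 77696459 to 77783022, hg38) went from 755 unsorted reads to 0. Set at a floor of 3 TRT-negative reads it was 242-fold lower, and the upper end of its counting interval was a log2 ratio of -7.62. AP4M1, a subunit of the AP-4 adaptor complex of vesicle sorting (chromosome 7, 100101549 to 100110345), had a guide that went from 464 reads to 0. At the same floor it was 149-fold lower, and the upper end of its interval was -6.92. RMND5A, a subunit of the CTLH ubiquitin ligase (chromosome 2, 86720291 to 86778041), had 408 and 0 reads. These are annotated as protein-coding genes. Where within the gene a guide cuts is not given in the tables used here. CHMP3, a component of the membrane-cutting ESCRT-III complex (chromosome 2, 86503430 to 86563479), had 391 and 0 reads, and RNF103-CHMP3, the readthrough gene over the same place, was listed with the same counts. AVPR1A, a vasopressin receptor, went from 277 reads to 0, SRCIN1, a regulator of SRC, from 276 to 0, and PTK2B, the tyrosine kinase PYK2, from 245 to 0. In all, 29 guides with 100 or more unsorted reads had no TRT-negative read. Of the 165 falling guides with 300 or more unsorted reads only 5 were without a TRT-negative read, and 12 had 20 or fewer.

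The best-read falling guides were all still read after sorting. PLAC9 stood first with 3043 unsorted and 354 TRT-negative reads, 8.28-fold lower after normalisation. RTP1, which helps odorant receptors reach the cell surface, had 2581 and 270. SKA3 (chromosome 13, 21153595 to 21176552), part of the complex that couples kinetochores to microtubules, had 2556 and 146 reads, 16.9-fold lower, with a log2 ratio of -4.07 (interval -4.33 to -3.83). SULT1E1, the oestrogen sulfotransferase (chromosome 4, 69841212 to 69860145), had 2494 and 153 reads, 15.7-fold lower. The guide of NDRG4 had 2517 and 219 reads, that of SPPL2C, an intramembrane protease, 2351 and 268, that of PLSCR5 2292 and 198, that of MMP23B, a metalloproteinase, 2231 and 230, and that of LRRC17 2154 and 231. EXOSC7, a subunit of the RNA exosome, had 2090 and 164, and OR6C4, an olfactory receptor, and PLAC4 completed the first 12 with 2102 and 246 and with 2053 and 243. Of these best-read guides and those with the lowest ratios, only the ones of EXOSC7 and OR6C4 belonged to a gene list used here.

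By function, 35 of the 287 guides fell in one of 25 gene lists, and 252 in none. Most well-read guides were in none: 9432 of 10616, of which the 252 were 2.67%, near the 2.70% of all. In each of the 11 lists with a falling guide, the interval of the share of well-read guides contained the 2.70% of all. Cytosolic ribosomal proteins had 3 of 36 well-read guides (8.33%, interval 1.75% to 22.5%). These were RPL37 with 1002 unsorted and 98 TRT-negative reads, RPL10A with 418 and 48, and RPS6 with 111 and 9. The DNA replication and mitosis list had 3 of 48 (6.25%, interval 1.31% to 17.2%). They were the replicative helicase subunit MCM7 with 315 and 35 reads, the spindle checkpoint kinase BUB1B with 106 and 0, and the cytokinesis motor KIF23 with 31 and 0. SKA3 was not in that list. Nuclear pore and transport had 2 of 14, RANBP2 with 1215 and 46 reads and the pore scaffold protein NUP37 with 45 and 0. The median log2 ratio of all well-read guides of these lists was -0.84 for ribosomal proteins, -0.91 for replication and mitosis and -0.46 for nuclear pore and transport, beside -0.64 over all well-read guides.

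Further lists held a lone falling guide. PRPF31, of the U4/U6 snRNP, had 1186 and 127 reads and was the only one among 38 well-read spliceosome guides. EXOSC7 was the only one among 18 of nonsense-mediated decay and the exosome, KDM2B, a histone demethylase of a Polycomb complex, with 847 and 69 reads, among 39 of the chromatin complexes, MRPL38 among 39 of mitochondrial ribosomal proteins, and NDUFA11, a subunit of respiratory complex I with 30 and 1 reads, among 37 of oxidative phosphorylation. In large gene families the shares lay near that of all well-read guides: 6 of 211 well-read olfactory receptor guides (2.84%) and 8 of 316 zinc finger guides (2.53%). The olfactory receptor guides were those of OR6C4 above, of OR13C5 with 1057 and 124 reads, of OR2M4 with 594 and 39, of OR5J2 with 512 and 44, of OR4A15 with 182 and 18 and of OR6C6 with 155 and 0. The best-read zinc finger guides were those of ZNF367 with 1403 and 135 reads, ZNF181 with 708 and 64, ZNF441 with 492 and 51 and ZNF37A with 460 and 9. Solute carriers had 8 of 167 (4.79%, interval 2.09% to 9.22%), led by the zinc transporter SLC39A13 with 1548 and 165 reads, the amino acid transporter SLC1A4 with 1235 and 116, the carnitine carrier SLC25A20 with 507 and 39 and the zinc transporter SLC39A10 with 162 and 11.

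No falling guide was found in several transcription lists, with few guides to judge by. There was none among 12 well-read guides of cleavage, polyadenylation and termination, 15 of elongation factors and Integrator, 11 of Mediator, 23 of RNA polymerase II and general factors, 17 of RNA polymerase III and 6 of RNA polymerase I. With 0 of 12, the interval for cleavage and polyadenylation still reached up to 26.5%. The proteasome (17 well-read guides), translation factors (29), autophagy (19), mTORC1 and AMPK signalling (21), tumour suppressors and DNA damage response (26) and receptor kinase signalling (25) were likewise without one. The 13 genes named in the study's account of the screen had 2 well-read guides and COMMD3 and BMI1 had 1, none of them falling.

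Whether other guides to the same genes behaved alike could be read only from guides above -3 or with under 30 unsorted reads. The 287 genes had 1432 further guides, of which 1121 had no read in either library. Another well-read guide was present for 99 of the genes, 125 guides in all. None of the 125 could stand at -3 or less, because such a guide would itself have been a falling guide. The rule did allow a gene to hold 2 falling guides, and none did. Shares and medians of all well-read guides given next include the falling guides, whereas the 125 cannot. At -2 or less there were 12 (9.60%, interval 5.06% to 16.2%), against 11.0% of all well-read protein-coding guides, and at -1 or less 54 (43.2%, interval 34.4% to 52.4%), against 39.2%. At 0 or less there were 87 (69.6%, interval 60.7% to 77.5%), against 65.8%. Their median log2 ratio was -0.68, with quartiles of -1.52 and 0.30, and that of all well-read guides was -0.64, with quartiles of -1.39 and 0.41. In genes with 2 or more well-read guides the median was also -0.64. The sign of these medians depends on the scaling: with the non-targeting guides centred on 0, an alternative chosen after seeing the data for these same 125 guides, their median was 0.21 (46.4% at or under 0), and that of all well-read guides 0.25 (42.6%). Guides of 1 gene are not replicates of a condition, and 13 of the 125 adjoined a row of identical counts, leaving 120 when each set of such rows is counted as 1.

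Within a gene the falling guide and its companions could point different ways. For 23 of the 99 genes every other well-read guide stood above 0, and for 65 every one stood under 0. With the non-targeting guides centred on 0 these were 45 and 44. Only 25 of the 99 genes had 2 or more other well-read guides. Nor are all 99 separate measurements. RANBP2, RGPD5 and RGPD8 had rows with the same 468 and 157 reads as their only other well-read guide. CHMP3 and RNF103-CHMP3 shared a companion of 305 and 183 reads. Of all well-read protein-coding guides 65.8% stood at or under 0, and 42.6% on the non-targeting scale. Those shares are of guides, falling ones included, whereas the counts are of genes. The same count over all genes was not made, so whether the 99 genes differ was not tested. The orphan receptor GPR82 had 512 and 31 reads in its falling guide, while others went from 686 to 2920 and from 872 to 1369. MOSPD1 had 895 and 50 reads in its falling guide, 972 and 1550 in another and 371 and 595 in a further one. ETS1, a transcription factor, went from 91 reads to 0 with the falling guide and from 1113 to 1597 and 553 to 808 with others. HRH1, the histamine H1 receptor, had 123 and 1 reads in the falling guide, 1291 and 3441 in another and 459 and 331 in the last. These genes had the highest medians among the 25 with at least 2 further well-read guides.

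At the other end stood the 4 genes with the lowest medians among those 25. Their further well-read guides were all lower after sorting, as they were for 65 of the 99 genes. ERN1, DUS2 and ACTL7A each also had a guide read only in the TRT-negative library. ERN1, the unfolded protein sensor IRE1, had a falling guide that went from 200 reads to 0 and others that went from 1774 to 645 and from 1060 to 455. DUS2, a tRNA dihydrouridine synthase, had 1393 and 135 reads, then 1799 and 415 and 1360 and 637; the last pair of guides lay beside rows with identical counts. ACTL7A, an actin-like protein of sperm, had 52 and 0, then 1011 and 379 and 405 and 123. RGPD2 had 1215 and 46, then 564 and 209 and 468 and 157, but its first and last guides share their counts with rows of RANBP2 and other RGPD genes, so that only the one with 564 and 209 reads was listed for RGPD2 alone. The kinetochore gene SKA3 went from 2556 to 146 with its falling guide, but from 972 to 653 and from 521 to 437 with others. The lowest and the highest companion were picked after their values were known: HCST had a second guide at 1226 and 153 reads, which narrowly missed the rule at -2.94, and EEF1E1, a scaffold of the tRNA synthetase complex, one at 792 and 3410 reads.

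Most falling guides could not be compared in this way. For 188 of the 287 genes no other guide was well read, and for 96 no other guide had a read in either library, RSBN1L, PTK2B, AVPR1A, EXOSC7, RPL37 and RPL10A among them. An unsorted read was found for 10.1% of the further guides, and for 10.5% of all protein-coding guides. A TRT-negative read was found for 21.0% and 22.6%.

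Some of the same genes also had guides seen only after sorting. Of the 1287 further guides without an unsorted read, 43 had 60 or more TRT-negative reads (3.34%, interval 2.43% to 4.47%), against 3.19% of all such protein-coding guides. They came from 41 of the 287 genes. The highest was a guide of MOSPD1 with 0 unsorted and 356 TRT-negative reads. KIF23, whose falling guide had 31 and 0 reads, had another with 0 and 312, ZNF441 one with 0 and 251, MRPL38 one with 0 and 133, RPS6 one with 0 and 102 and NUP37 one with 0 and 66.

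Several falling guides cannot be assigned to 1 gene. In 5 sets, neighbouring rows of the table carried identical counts under different gene names, 14 of the 287 guides in all, and 278 guides remain when each such set is counted as 1. The largest set had 1215 unsorted and 46 TRT-negative reads and was listed for RANBP2, a nuclear pore protein, and for RGPD1, RGPD2, RGPD5, RGPD6 and RGPD8, its near-identical copies. The others were CHMP3 with RNF103-CHMP3, the potassium channel genes KCNJ12 and KCNJ18 with 701 and 56 reads, FOXD4L2 and FOXD4L4 with 92 and 0, and the chemokine genes CXCL2 and CXCL3 with 61 and 0. The guide of PPP2CA, the catalytic subunit of protein phosphatase 2A, had 43 and 0 reads and lay beside a row of hsa-mir-3661 with the same counts; the microRNA gene lies within PPP2CA. Among well-read protein-coding guides beside a row with identical counts, 15 of 1064 met the rule (1.41%, interval 0.791% to 2.31%), and of the others 272 of 9552 (2.85%, interval 2.52% to 3.20%). Those 15 are the 14 of the 5 sets and the guide of PPP2CA. Rows with identical counts repeat 1 measurement, so the first interval is too narrow and the shares cannot be told apart by it.

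The falling guides were spread over the library and the genome. Sub-library A held 152 of them among 4947 well-read guides (3.07%, interval 2.61% to 3.59%) and sub-library B 135 among 5669 (2.38%, interval 2.00% to 2.81%). Of the 287 genes, 285 were placed in GENCODE 44 on hg38. By chromosome the share of well-read guides that met the rule ran from 0.707% on chromosome 20 (2 of 283, interval 0.0857% to 2.53%) to 4.92% on chromosome 18 (6 of 122, interval 1.83% to 10.4%). Chromosome 2 gave the largest number, 25 of 680 (3.68%, interval 2.39% to 5.38%), among them all 6 genes of the RANBP2 set and both of the CHMP3 set, which share their counts.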

How the data were processed

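Guide cassettes from genomic DNA were counted in 1 unsorted and 1 TRT-negative library. The authors deposited raw counts of reads per guide. A second deposited table holds a normalised signal, which equals the raw count times 0.982 before sorting and times 1.02 after it. The submitters' processing notes name MAGeCK and hg38; for the MAGeCK version and the matching of reads to guides, the entry is not given in the sources used here. Other deposited tables hold the authors' own fold changes, ranks and p-values and were not used. Guide sequences were not used here.

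The rule used a minimum of 30 raw unsorted reads and log2((TRT-negative + 1)/(unsorted + 1)) of -3 or less on the normalised signal. Both tables were joined on guide and gene. Each of 1000 non-targeting guides is listed 2 times and was counted as 1. The members and gene lists were chosen with earlier results of these data known. Genes were named by a rule: the 12 members with most unsorted reads, the 8 with the lowest ratio, 3 on either side of the threshold, list members (for lists with over 6, the 4 best read), and the 4 genes each with the lowest and highest median of at least 2 other well-read guides. Symbols were placed through GENCODE 44 and RefSeq synonyms. Intervals and the rule were run on simulated counts with planted falls and counting error alone. That setting left out the least-read guides and the wider spread of the real ratios, so it checks the calculation only. Alternatives covered scaling, pseudocount, read minimum, threshold, sub-library, identical rows and counting error. Python 3.11.15, numpy 2.4.6, pandas 2.3.3 and scipy 1.17.1 were used.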

Additional observations from a re-analysis of the deposited data

How the results depend on the processing

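No paired analysis was possible because each condition has 1 library and the labels carry no replicate numbers. With total-count scaling or a pseudocount of 0.5 the number of falling guides stayed at 287. It was 136 when non-targeting guides were centred on 0, 165 with at least 300 unsorted reads, 1169 at a threshold of -2, 128 at -4, 152 in sub-library A, 135 in sub-library B, and 188 when the upper end of the counting interval had to pass. As a share of well-read protein-coding guides, these were 1.28%, 1.78%, 11.0%, 1.21%, 3.07%, 2.38% and 1.77%, and the share was 2.25% with a pseudocount of 5 and 2.12% with at least 100 unsorted reads. The share of non-targeting guides became 0.641% with non-targeting scaling, 12.8% at -2, 0.641% at -4 and 0.641% by the counting interval, and that of microRNA guides 1.05%, 12.1%, 1.05% and 1.75%. Genes with at least 2 such guides numbered 34 at a threshold of -2 and 0 under each of the other alternatives. Non-targeting scaling raised the log2 ratio of all well-read protein-coding guides by a median of 0.89, to 0.25. For the other well-read guides of genes with a falling guide, with members chosen anew on that scale (67 other guides in place of 125), the median was 0.15 in place of -0.68 and 49.3% stood at or under 0; for the same 125 guides, an alternative chosen after seeing the data, these were 0.21 and 46.4%. Under the remaining alternatives that median stayed under 0. In sub-library A and in sub-library B alone it rested on 23 other guides each. The intervals there, -1.40 to 0.34 and -1.37 to 0.24, do not fix its sign. Sub-library B holds no microRNA guides and gave no value for them. Depth limits the weakest calls: from 30 unsorted reads, 3 TRT-negative reads were already too many to meet the rule.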

Other observations

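Gene families not covered by the lists were counted after the values were seen, so their counts are descriptions without a test. Each was chosen for holding more than 1 falling guide among few well-read ones. Its share therefore had to exceed the 2.70% of all well-read guides, and the excess supports nothing. The chaperonin TRiC, which folds actin and tubulin, had 2 of 6 well-read guides among the falling ones. They were CCT7 with 386 unsorted and 12 TRT-negative reads and CCT4 with 107 and 1. The ESCRT family had 3 of 9, CHMP1A with 1012 and 85 reads, CHMP3 with 391 and 0 and VPS37D with 380 and 17. The vacuolar ATPase, the proton pump of lysosomes, had 2 of 15, ATP6V1G2 with 1585 and 88 reads and ATP6V1E1 with 402 and 24. Both well-read guides of the ROR receptor kinases were falling, ROR2 with 743 and 62 reads and ROR1 with 369 and 41. The organic anion transporters had 2 of 5, SLCO1B3 with 1399 and 108 and SLCO1B1 with 42 and 0. The ABCC transporters had 2 of 8, ABCC11 with 1822 and 138 reads and ABCC4 with 1737 and 144. The lowest shares of the families counted were those of the HOX genes, 2 of 17 (11.8%), HOXD1 with 913 and 89 reads and HOXC11 with 69 and 5, and of the bitter taste receptors, 2 of 18 (11.1%), TAS2R5 with 1517 and 179 and TAS2R3 with 34 and 0. The well-read guides that did not fall had median log2 ratios of -0.67 (TRiC), -0.57 (ESCRT), -0.43 (vacuolar ATPase) and -0.33 (organic anion transporters). The medians were -0.38 for ABCC transporters, -0.32 for HOX genes and -0.51 for bitter taste receptors, and no such guide was left for ROR receptors. Over all well-read guides, falling ones included, the median was -0.64. For every one of these families the number of well-read guides is small, and families without a falling guide were not searched.

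Genes of falling guides sometimes lay side by side. AP4M1 and MCM7 overlap on chromosome 7, and on chromosome 2 RMND5A lies 6569 bases from CD8A, whose falling guide had 279 unsorted and 11 TRT-negative reads. Within 100 kb of another such gene with different counts lay 16 of 285 placed genes (5.61%, interval 3.24% to 8.96%), and of the other genes with a well-read guide 505 of 7794 (6.48%) lay that close to one.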
